A study of Homo sapiens with 18 samples.

Results

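Chromosome 19 is the most gene-dense human chromosome, and much of it is taken up by clusters of KRAB zinc finger genes. The peaks described here are those whose midpoint lay on chr19 of the hg19 build in ChIP-seq lists for the DNA topoisomerases TOP2A and TOP2B. Of 1399117 MACS peaks on chromosomes 1 to 22 and X in 12 libraries, 30225 lay on chr19. Of 1461166 SISSRS binding sites, called by a second program from the same libraries, 32162 lay on chr19. The chr19 peaks were split by position into 3 windows rich in zinc finger genes and the rest of the chromosome. The windows were chr19:19800000-24500000 (cluster 1), chr19:52000000-54000000 (cluster 2) and chr19:57000000-58900000 (cluster 3), 8.6 Mb in all. They held 4347 MACS peaks and 4484 SISSRS sites, and the remaining 50.5 Mb held 25878 peaks and 27678 sites. The gene-poor chr18, with 36013 MACS peaks, served as the reference. The rule for a member uses position alone, but the chromosomes and windows were chosen with earlier results of these data known.

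Type II topoisomerases pass one DNA duplex through a transient double-strand break in another and so relieve the strain that transcription, replication and chromatin looping put on DNA. TOP2A is highest in dividing cells and TOP2B is present in cycling and resting cells alike. Etoposide holds both enzymes on cleaved DNA, and mitoxantrone is an intercalating drug that also traps them. KRAB zinc finger genes encode DNA-binding repressors that act through the co-repressor TRIM28. They lie in tandem families of near-identical copies, and the 3′ ends of many carry the heterochromatin mark H3K9me3 although the genes are transcribed.

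The cells were KG-1, an established human myeloid leukaemia line, crosslinked with 1% formaldehyde for 10 min. In the etoposide experiment, cells received methanol vehicle or 100 µM etoposide for 1 h, and TOP2A was precipitated with antibody 3116 and TOP2B with antibody 3535, giving 2 libraries for each of the 4 groups. In the mitoxantrone experiment, cells were left without drug or received 0.5 µM mitoxantrone for 1 h, with 1 library for each antibody and condition. Several immunoprecipitations with the same antibody were pooled for a library. The labels do not say whether libraries with different replicate numbers came from separate cultures, so p-values measure only the spread between these libraries, which may be technical. Nor do the labels say whether the TOP2A and TOP2B libraries of the same treatment and replicate number came from the same chromatin. The tests below take all libraries as separate. The 6 input libraries are not analysed here. Copy number of KG-1 and the mappability of near-identical zinc finger copies were not measured, and their share in the densities below was not tested.

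The lists differed widely in length, from 35932 to 294749 MACS peaks in the etoposide experiment and from 702 to 109429 in the mitoxantrone experiment. Peaks called in 1 library seldom overlapped those of its replicate: on chr19 the share was 0.433% to 3.50%, against 0.405% to 3.44% over all chromosomes. Most single chr19 peak positions were thus not shared between replicates, and the results below concern densities over large intervals. The first TOP2A etoposide library had the shortest list of its experiment, and the first TOP2B etoposide library stood apart from the other 7 on chr19, as described next. These 2 libraries also had the lowest median MACS scores over all chromosomes, 161.9 and 84.5 against 446.05 to 1289 in the other 6. The intervals given for single libraries cover counting error only.

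Peaks were denser on chr19 than in the genome as a whole in 7 of the 8 libraries of the etoposide experiment. Density is given as peaks per Mb divided by the same quantity over all 23 chromosomes, so that 1 is the library mean. For TOP2A it was 1.22 (5086 peaks) and 1.14 (5472) with vehicle, and 1.13 (794) and 1.11 (4155) with etoposide. For TOP2B it was 1.15 (2575) and 1.12 (6416) with vehicle, and 0.929 (1263) and 1.14 (2274) with etoposide. Chr19 ranked second of 23 chromosomes in those 7 libraries. It ranked 13th in the first TOP2B etoposide library, whose exact 95% counting interval, 0.879 to 0.982, lay below that of each of the other 7. SISSRS sites did not set that library apart: its chr19 density was 1.08, the range over the 8 libraries was 1.08 to 1.23, and chr19 ranked second in all 8. Chromosome lengths run to the largest peak end in any list, so gaps in the sequence count as empty length and lower a chromosome's density. The ranks were not corrected for such gaps, and their order per sequenced Mb was not tested.

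Chr18 lay near the mean, between 0.940 and 1.02. The chr19 density was on average 1.13 times that of chr18 in the same library (range 0.908 to 1.29, higher in 7 of 8; mean log2 ratio 0.18 ± 0.15, SD, n = 8). An exact two-sided sign-flip permutation test over the 8 libraries gave p = 0.0156, and 0.03125 after Benjamini-Hochberg adjustment over the 2 such tests made. The smallest p this test can give is 0.0078. It takes the 8 libraries as separate, although TOP2A and TOP2B libraries of the same treatment and replicate number may share chromatin. If they do, the p-value is too small. The ratio of chr19 to chr18 density was lower when low-scoring peaks were left out. With peaks of a MACS score of at least 100 the mean log2 ratio was 0.14 (exact sign-flip p = 0.0938). With each list cut to its 35932 highest-scoring peaks it was -0.20, below chr18 (exact sign-flip p = 0.0547). Both p-values are unadjusted, and the first TOP2A etoposide list, which has that length, was not cut. The median scores of the lists differed, as given above, so a cut at 100 removes unlike shares of them. Why the ratio changed was not tested.

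The zinc finger clusters spanned a narrower range of densities than the rest of the chromosome. In the clusters it was 1.11 and 1.09 in the TOP2A vehicle libraries, 1.10 and 1.08 with TOP2A and etoposide, 1.15 and 1.10 in the TOP2B vehicle libraries, and 1.09 and 1.10 with TOP2B and etoposide. All 8 values were above the library mean and above chr18. Outside the clusters the density was 1.23 and 1.15, then 1.14 and 1.11 for TOP2A, and 1.15 and 1.12, then 0.902 and 1.15 for TOP2B, in the same order. The low chr19 value of the first TOP2B etoposide library therefore lay outside the clusters, where it was 0.902, while its clusters, at 1.09, were within the range of the other libraries. The counting intervals of the clusters were wide, 0.906 to 1.32 for the 112 cluster peaks of the first TOP2A etoposide library and 1.03 to 1.17 for the 918 of the second TOP2B vehicle library, wider than the spread between the 8 values.

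The clusters were less dense than the remainder in 7 of 8 libraries and denser in the first TOP2B etoposide library. The mean log2 ratio of clusters to remainder was -0.02 ± 0.13 (SD, n = 8; range -0.15 to 0.28), which did not pass the exact sign-flip test (p = 0.766; 0.766 adjusted). Without the first TOP2B etoposide library, the only one with a positive ratio, the mean was -0.06; no p is given for it, since leaving that library out makes all 7 ratios negative. The remainder holds 30 of the chromosome's 100 kb bins in which no list has a peak, which lowers its density, and over occupied 100 kb bins alone the mean log2 ratio of clusters to remainder was -0.10 (exact p = 0.0625). Among the 35932 highest-scoring peaks of each list the clusters were the denser part, by a mean log2 ratio of 0.28 (exact p = 0.0156). The first TOP2A etoposide list, which has that length, was not cut. These are alternative settings among several tried, and their p-values are unadjusted.

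**Figure D1:**
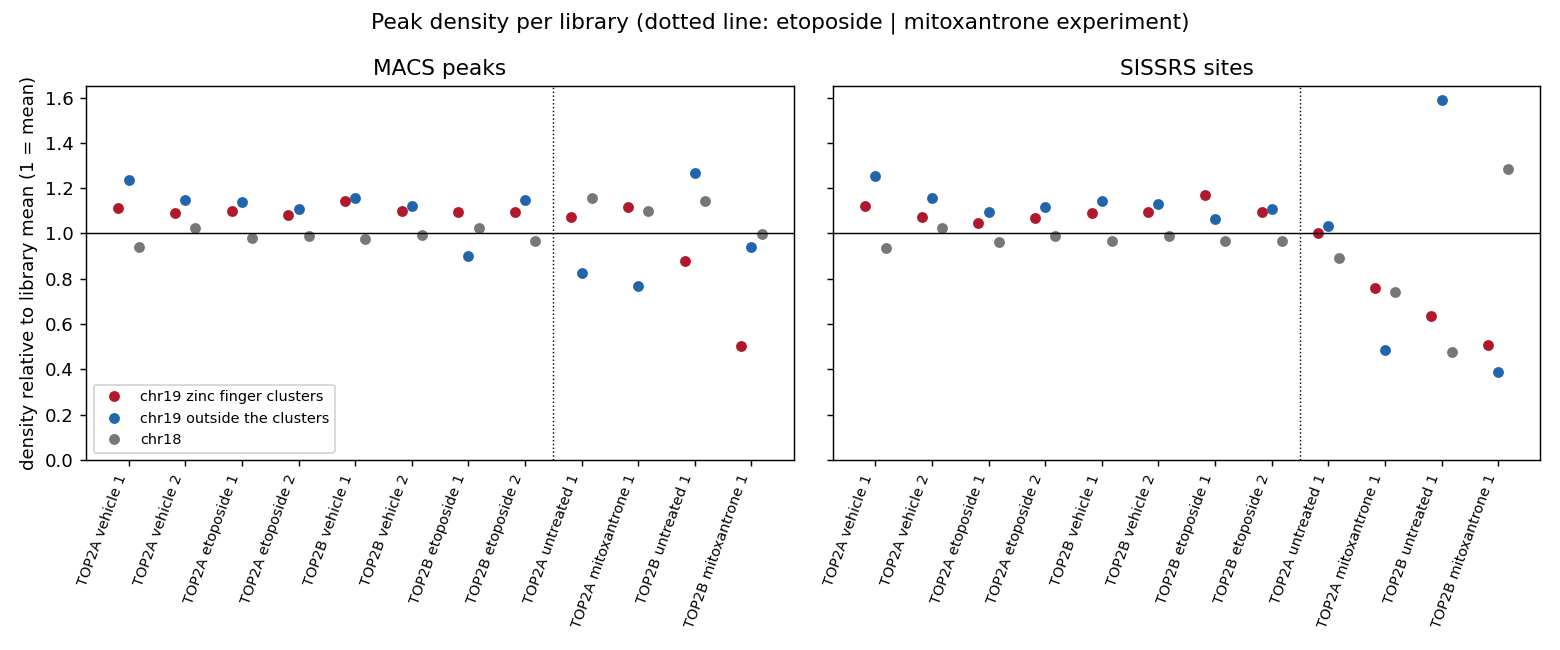
Density relative to the library mean (y axis, 1 is the mean) for the chr19 zinc finger clusters, chr19 outside them and chr18 in each of 12 libraries (x axis), for MACS peaks and SISSRS sites. In the etoposide experiment the MACS cluster points stay between 1.08 and 1.15, and the point outside the clusters falls to 0.902 in the first TOP2B etoposide library only.

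The 3 clusters were not alike in every library. Cluster 1, the long window next to the centromere, ranged from 0.963 to 1.13 over the 8 libraries, and cluster 3, the window near the end of the long arm, from 1.08 to 1.28. Cluster 2 varied most. Its density was 1.20 (170 peaks) and 1.20 (195) for TOP2A with vehicle, and 1.01 (24) and 1.01 (129) when etoposide was present, with no overlap between these groups. For TOP2B it was 1.44 (109) and 1.12 (218) with vehicle and 1.07 (49) and 1.36 (92) with etoposide, where the groups overlapped. In cluster 1 the TOP2A groups were apart in the other direction, with 1.07 and 1.03 under vehicle and 1.13 and 1.11 under etoposide. With 2 libraries against 2, groups apart are common: TOP2A etoposide was below vehicle with no overlap in 15.1% of 1 Mb bins genome-wide and above it in 17.7%. Single clusters were not tested.

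Chr19 peaks scored low. The MACS score is the authors' value, set by the caller for each peak, and it was turned into a percentile within its own list, so that 50 is the middle of the list. The mean percentile of chr19 peaks was 47.1 and 45.6 in the TOP2A vehicle libraries, 47.4 and 46.6 with TOP2A and etoposide, 45.3 and 45.5 in the TOP2B vehicle libraries, and 46.6 and 47.7 with TOP2B and etoposide. Chr18 peaks had mean percentiles of 50.6 to 52.2. Outside the clusters the mean was 44.5 to 46.9, among the 4 lowest of 24 segments (the other 22 chromosomes and the 2 parts of chr19) in each of the 8 libraries. Within the clusters it was 47.7 to 53.6, above the remainder in 8 of 8 libraries.

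The excess of chr19 peaks was larger in the lower score quartiles and was not seen in the highest. Quartile 1 holds the lowest scores of each list and quartile 4 the highest. In quartile 1, the chr19 density was 0.979 to 1.36 with a median of 1.26, and it was above the mean in 7 of 8 libraries. The medians of quartiles 2 and 3 were 1.25 and 1.08, each again above the mean in 7 of 8. In quartile 4 it was 0.748 to 1.03 with a median of 0.904, and it was below the mean in 5 of 8. In each of the 8 libraries quartile 1 was denser on chr19 than quartile 4. On chr18 the order was the opposite in each of the 8, with medians of 0.917 in quartile 1 and 1.04 in quartile 4. Outside the clusters the chr19 medians of quartiles 1 and 4 were 1.30 and 0.880. In the clusters the medians were 1.06 and 1.07, and quartile 1 was the denser in 4 of 8 libraries. Tied scores made the quartiles unequal, most of all in the first etoposide library of each enzyme. Quartiles 1 to 4 held 22817, 16099, 12882 and 17975 peaks in that of TOP2B. In that of TOP2A they held 10280, 7846, 8879 and 8927.

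**Figure D2:**
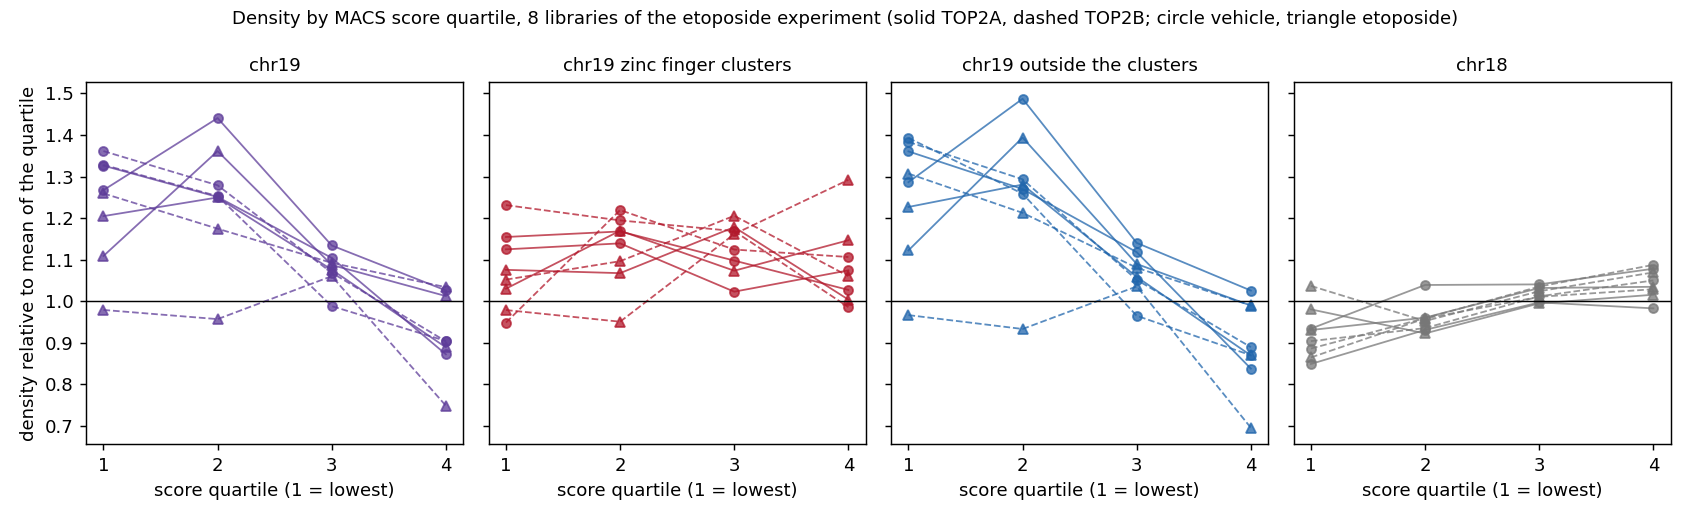
Density relative to the mean of each MACS score quartile (y axis) against quartile (x axis, 1 is the lowest-scoring) for chr19, its clusters, its remainder and chr18; each line is 1 of the 8 libraries of the etoposide experiment. Each chr19 line ends lower at quartile 4 than at quartile 1 and each chr18 line higher, while the cluster lines have medians of 1.06 and 1.07 at the ends.

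The highest scores were also less common outside the clusters than inside in 7 of 8 libraries. Outside the clusters 6.52% to 9.80% of peaks were at percentile 90 or over of their list, against 7.14% to 11.9% in the clusters. SISSRS gives the number of tags at each site and a fold over background, both the authors' values. The median fold of chr19 sites was below that of chr18 in 7 of 8 libraries, at 81.8 against 89.8 in the first TOP2A vehicle library and 131.6 against 149.1 in the second TOP2B etoposide library. Cluster sites had a higher median fold than sites outside the clusters in 8 of 8, and a higher median tag count in 7 of 8, with a tie in the other.

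Chr19 peaks were slightly wider than others outside the clusters and narrower within. The narrowest width the caller gave made up 53.8% to 79.3% of peaks outside the clusters, so the median width equalled that minimum in each library and only the mean differed. The mean width in the clusters minus that outside was -6.17 to -1.80 bp, negative in 8 of 8 libraries, for example 118.0 against 122.0 bp in the first TOP2A vehicle library. Outside the clusters the mean exceeded that of chr18 by 1.62 to 7.04 bp, also in 8 of 8. The chr19 density among peaks wider than the minimum was 1.03 to 1.24, above the mean in each of the 8 libraries, and among those of minimum width 0.861 to 1.21, above it in 7. When only wider peaks were kept, the clusters were less dense than the remainder by a mean log2 ratio of -0.17 (exact sign-flip p = 0.0469, unadjusted). That is 1 of several alternative settings, and among the highest-scoring peaks the sign was the opposite.

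Along the chromosome, vehicle peaks were densest, per full 1 Mb bin, at the end of the short arm. Of 60 bins of 1 Mb, 58 held peaks, and 50 had a mean vehicle density above the library mean. The 3 densest were chr19:2000001-3000000, with 1.39 to 2.12 in the 4 vehicle libraries, chr19:1-1000000, with 1.45 to 1.78, and chr19:1000001-2000000, with 1.19 to 1.90. All 3 lie outside the clusters. With etoposide other bins had the highest mean of 2 libraries, chr19:36000001-37000000 for TOP2A (1.69, against 1.18 to 1.46 in those 3) and chr19:46000001-47000000 for TOP2B (1.37, against 1.06 to 1.28), both chosen after their values were seen. The 3 sparsest were chr19:59000001-60000000 (0.103 to 0.238), of which the chromosome fills only the part up to 59.118 Mb, chr19:27000001-28000000 (0.406 to 0.552) and chr19:31000001-32000000 (0.688 to 0.958). Each density is per full 1 Mb, so a bin partly without sequence reads low. The bins chr19:25000001-26000000 and chr19:26000001-27000000 held no peak in any list. How much of chr19:27000001-28000000 has sequence was not measured, so the order of bins per sequenced Mb is not known. The 8 bins with over 50% of their length in a cluster ranged from 0.943 to 1.25 in mean vehicle density. Over the 58 bins the Pearson correlation of density between replicates was 0.748 for TOP2A vehicle, 0.477 for TOP2A etoposide, 0.547 for TOP2B vehicle and 0.143 for TOP2B etoposide. The Spearman rank correlations were lower, at 0.611, 0.258, 0.360 and -0.061 in the same order. Bins share length and gaps, and the etoposide lists are shorter than the vehicle lists of the same antibody.

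The first question of the design was whether etoposide moved TOP2 peaks on or off chr19. No shift passed the test for either enzyme. limma fitted to the log2 density of 23 chromosomes in 8 libraries gave a chr19 change with etoposide of -0.07 for TOP2A (SE 0.08, 95% interval -0.27 to 0.13, adjusted p = 0.949). As a percentage of the vehicle density that interval is -16.9% to 9.11%. For TOP2B the change was -0.14 (SE 0.08, interval -0.34 to 0.06, adjusted p = 0.776). Chr19 was not called for either enzyme, and the share of chromosomes called at an adjusted p under 0.05 was 0% in both comparisons; at an unadjusted p under 0.05, 0 chromosomes passed for TOP2A and 1, not chr19, for TOP2B.

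The TOP2B value rested on 1 library. Without the second TOP2B etoposide library the chr19 change was -0.29 (limma, adjusted p = 0.0176), and without the first it was 0.01 (adjusted p = 0.922). The libraries themselves show this: 0.929 and 1.14 with etoposide against 1.15 and 1.12 with vehicle. For both enzymes the sign of the chr19 change also turned when each list was cut to its 35932 highest-scoring peaks, at 0.15 for TOP2A and 0.03 for TOP2B (adjusted p = 0.984 and 0.869). The first TOP2A etoposide list has that length, so it kept its low-scoring peaks while longer lists lost theirs. Chr19 was denser in score quartile 1 than in quartile 4 in each library, so this cut sets unlike parts of the lists side by side.

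The estimates were smaller in the clusters than outside them, a difference that was not tested. In the fit over 24 segments the cluster change was -0.01 for TOP2A (SE 0.03, interval -0.08 to 0.05, adjusted p = 0.972) and -0.03 for TOP2B (SE 0.03, interval -0.10 to 0.03, adjusted p = 0.870). The standard errors come from libraries that happened to lie close together, and the counting intervals given above are wider. Outside the clusters the change was -0.08 for TOP2A (SE 0.10, adjusted p = 0.972) and -0.16 for TOP2B (SE 0.10, adjusted p = 0.850), the second lowest and the lowest of 24 segments. Neither part of chr19 was called, as was the case for each segment (0% called; 0 and 1 segments at an unadjusted p under 0.05, none on chr19). The TOP2B change outside the clusters was -0.33 without the second etoposide library (adjusted p = 0.0101) and 0.01 without the first (adjusted p = 0.902).

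**Figure D3:**
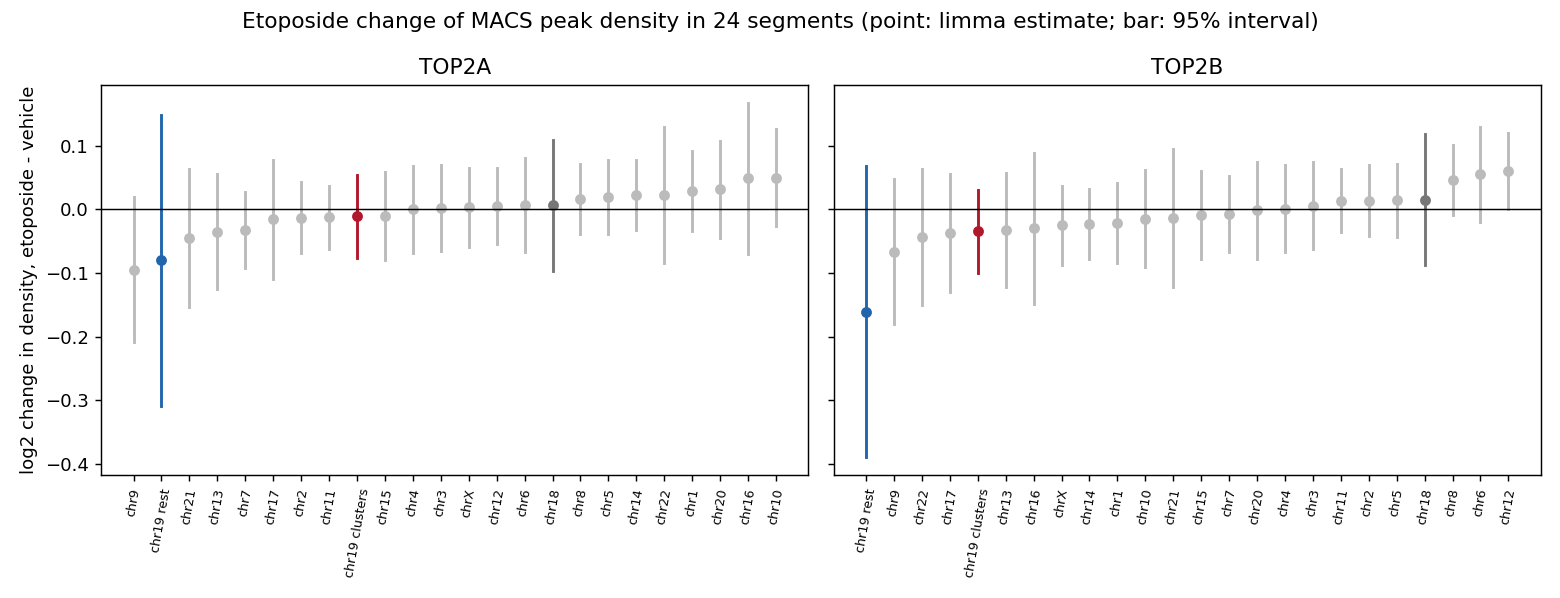
Change in log2 density with etoposide (y axis; point, limma estimate; bar, 95% interval) in 24 segments ordered by their change (x axis), for TOP2A and TOP2B. The interval of chr19 outside the clusters (blue) is the longest and spans 0 for both enzymes, the clusters (red) lie near 0, and chr18 (dark grey) is at 0.01 and 0.02.

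Score and width of the cluster peaks did not pass either. The mean score percentile in the clusters changed by 0.52 points for TOP2A (SE 1.63, adjusted p = 0.910) and 1.80 for TOP2B (SE 1.63, adjusted p = 0.741). Outside the clusters it changed by 0.62 for TOP2A (SE 0.73, adjusted p = 0.790) and 1.73 for TOP2B (SE 0.73, unadjusted p = 0.05005, adjusted p = 0.670). The mean log2 width in the clusters changed by -0.0014 for TOP2A (SE 0.0078, adjusted p = 0.970) and 0.0082 for TOP2B (SE 0.0078, adjusted p = 0.742). limma called 0% of segments for score and 0% for width, and at an unadjusted p under 0.05 it passed 1 segment for TOP2A and 0 for TOP2B in score and 1 for each enzyme in width, none on chr19.

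Single megabases of chr19 also gave no call. limma tested 2887 bins of 1 Mb genome-wide, 58 of them on chr19, and called 0% with either enzyme. At an unadjusted p under 0.05, 114 bins passed for TOP2A, 5 of them on chr19, and 104 for TOP2B, 2 on chr19. For TOP2A both etoposide libraries lay below both vehicle libraries in 13 of 58 chr19 bins (22.4%, against 15.1% of all bins) and above them in 8 (13.8%, against 17.7% of all bins). For TOP2B they lay below in 12 (20.7%, against 15% of all bins) and above in 4 (6.90%, against 19.2%). The median chr19 bin changed by -0.03 with TOP2A and -0.13 with TOP2B, against 0.0035 and -0.0025 over all tested bins, and 34 and 43 of the 58 chr19 bins had a negative estimate.

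The bins with the largest estimates are named by size alone, since none was called. For TOP2A the lowest was chr19:7000001-8000000, with 81 and 90 peaks under vehicle and 5 and 62 under etoposide, or 3.77 and 3.64 against 1.39 and 3.21 per 10000 peaks of the list (log2 change -0.74, SE 0.27, adjusted p = 0.924). Next came chr19:15000001-16000000 (log2 change -0.61) and chr19:53000001-54000000, inside cluster 2, with 4.19 and 4.05 against 2.78 and 2.59 per 10000 (log2 change -0.58, SE 0.23, adjusted p = 0.924). In the cluster 2 bin both etoposide libraries were alike, whereas in the other 2 bins the low value came mainly from the first etoposide library, with 5 and 7 peaks. Without the second TOP2A etoposide library the first 2 of these bins were called (log2 changes -1.29 and -1.02, adjusted p = 0.00467 and 0.0239), on the strength of those few peaks. The largest increases for TOP2A were at chr19:27000001-28000000 (0.79, SE 0.40), chr19:30000001-31000000 (0.39) and chr19:12000001-13000000 (0.34), all with an adjusted p of 0.924.

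For TOP2B the largest decrease was in the terminal megabase, chr19:1-1000000, with 5.49 and 4.92 per 10000 under vehicle against 2.58 and 4.39 under etoposide (log2 change -0.61, SE 0.26, adjusted p = 0.992). It was followed by chr19:11000001-12000000 (-0.58) and chr19:47000001-48000000 (-0.50). The largest increases were at chr19:13000001-14000000 (0.42), chr19:20000001-21000000 in cluster 1 (0.30) and chr19:31000001-32000000 (0.28), each with an adjusted p of 0.992.

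**Figure D4:**
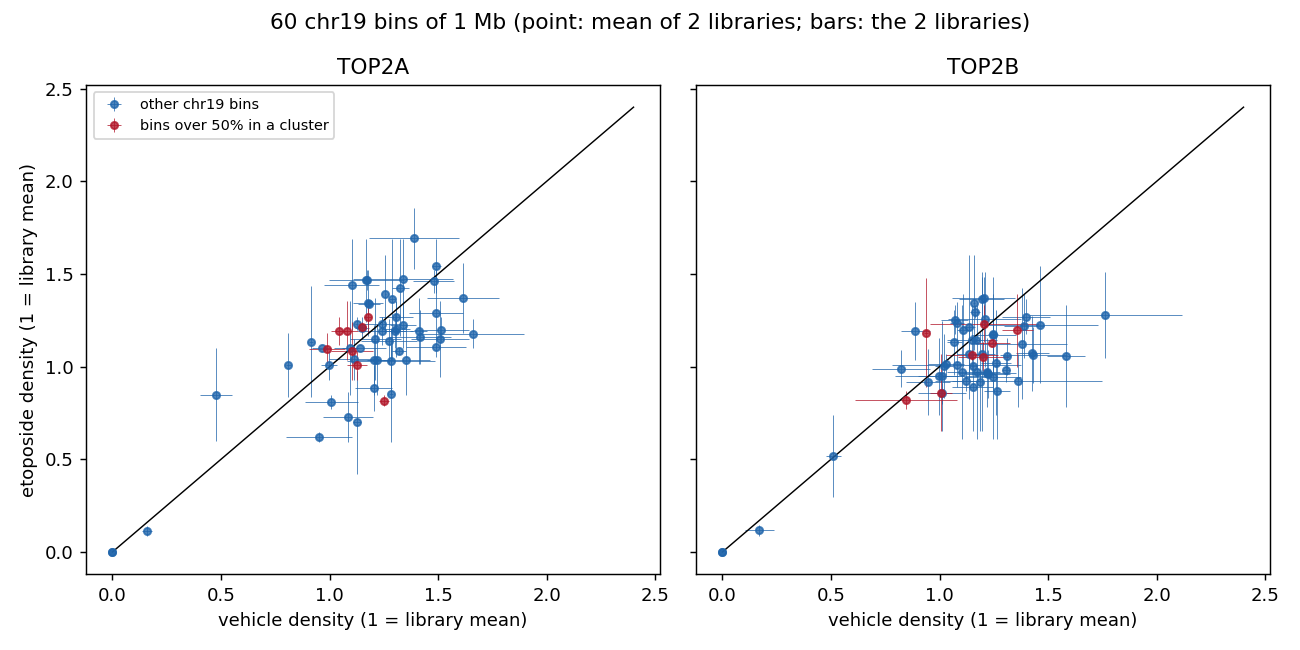
Density of 60 chr19 bins of 1 Mb with etoposide (y axis) against vehicle (x axis), both relative to the library mean; points are means of 2 libraries, bars join the 2 libraries, and the diagonal marks equality. Bins over 50% in a cluster (red) lie among the others, and the bars of most bins cross the diagonal or come near it.

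The etoposide changes of the 2 enzymes were not distinguishable on chr19. The TOP2A change minus the TOP2B change was 0.07 for chr19 (SE 0.12, interval -0.21 to 0.35, adjusted p = 0.940) and 0.02 for the clusters (SE 0.04, interval -0.07 to 0.12, adjusted p = 0.920). TOP2A and TOP2B densities were compared directly as well. With vehicle, TOP2A minus TOP2B was 0.05 on chr19 (SE 0.08, adjusted p = 0.980) and -0.03 in the clusters (SE 0.03, adjusted p = 0.971). With etoposide it was 0.12 on chr19 (SE 0.08, interval -0.07 to 0.32, adjusted p = 0.703) and -0.0039 in the clusters (SE 0.03, adjusted p = 0.964). The chr19 value with etoposide was 0.27 without the second TOP2B etoposide library (adjusted p = 0.0252) and -0.03 without the first (adjusted p = 0.966). Over the 58 chr19 bins the mean densities of the 2 enzymes had a Pearson correlation of 0.828 with vehicle and 0.383 with etoposide, as a description over bins that share length and gaps. By rank the correlation was lower, at 0.664 with vehicle and 0.060 with etoposide (Spearman). limma called 0% of chromosomes, segments and bins in each of these 3 comparisons. At an unadjusted p under 0.05 it passed 0 chromosomes and 0 segments, and 104, 22 and 237 bins in the order given, of which 2, 1 and 11 were on chr19.

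The mitoxantrone experiment has 1 library a group, so it gives no test, and its lists differ from those above in kind. Mean peak widths over all chromosomes were 494.9 to 1488 bp, against 108.3 to 153.0 bp in the etoposide experiment. Without drug, TOP2A chr19 density was 0.863 (1839 peaks, exact 95% interval 0.824 to 0.903), below the library mean and rank 17 of 23, whereas chr18 was at 1.16. The zinc finger clusters of that library were at 1.07 and the remainder at 0.827. With mitoxantrone TOP2A chr19 density was 0.819 (121 peaks), a ratio of 0.949 to untreated (exact interval 0.783 to 1.14). For TOP2B it was 1.21 (218 peaks) untreated and 0.878 (12 peaks) with mitoxantrone, a ratio of 0.726 (0.369 to 1.29). These ratios were within counting error of 1. Neither part of chr19 was past a 1.5-fold change with either enzyme when 0.5 peaks were added to each count, against 4.17% of 24 segments for TOP2A and 12.5% for TOP2B.

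SISSRS gave another picture for the same libraries. TOP2A chr19 sites had a density of 1.03 (2144 sites) without drug and 0.523 (38) with mitoxantrone, a ratio of 0.508 (exact interval 0.359 to 0.700). For TOP2B the densities were 1.45 (298) and 0.405 (11), a ratio of 0.279 (0.138 to 0.507). The low ratios lay outside the clusters, at 0.467 (0.314 to 0.669) and 0.244 (0.110 to 0.470). The clusters had 303 and 8 sites for TOP2A and 19 and 2 for TOP2B, and their intervals, 0.324 to 1.51 and 0.0900 to 3.30, include 1. Chr19 outside the clusters was 1 of the segments past 1.5-fold for both enzymes, against a background of 8.33% of segments for TOP2A and 70.8% for TOP2B, in either direction. Passing 1.5-fold was thus common for TOP2B. With 0.5 sites added, the log2 ratio outside the clusters was -1.96 for TOP2B, rank 1 of 24 segments from the lowest, followed by chr22 at -1.72. For TOP2A it was -1.07, rank 2 from the lowest. The chr18 ratio was 0.830 for TOP2A and 2.70 for TOP2B. Densities are relative to the whole list, so a shift on 1 large part moves all others. For TOP2B, chromosome 8 held 4528 of 10543 SISSRS sites untreated and 307 of 1393 with mitoxantrone, a lower share. Of MACS peaks it held 613 of 9259 and 153 of 702, a higher share. Its part in the chr19 and chr18 ratios was not tested. The 2 callers agreed less here than elsewhere: 65.6% of TOP2A untreated chr19 MACS peaks held a SISSRS site, and 15.7% with mitoxantrone, 40.4% for TOP2B untreated and 0 of 12 with mitoxantrone, against 94.6% to 99.9% in the etoposide experiment. The low agreement was not particular to chr19. Over all chromosomes the shares were 63.7%, 23.8%, 32.7% and 12.8% in the same order, against 95.3% to 99.7% in the etoposide experiment.

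**Figure D5:**
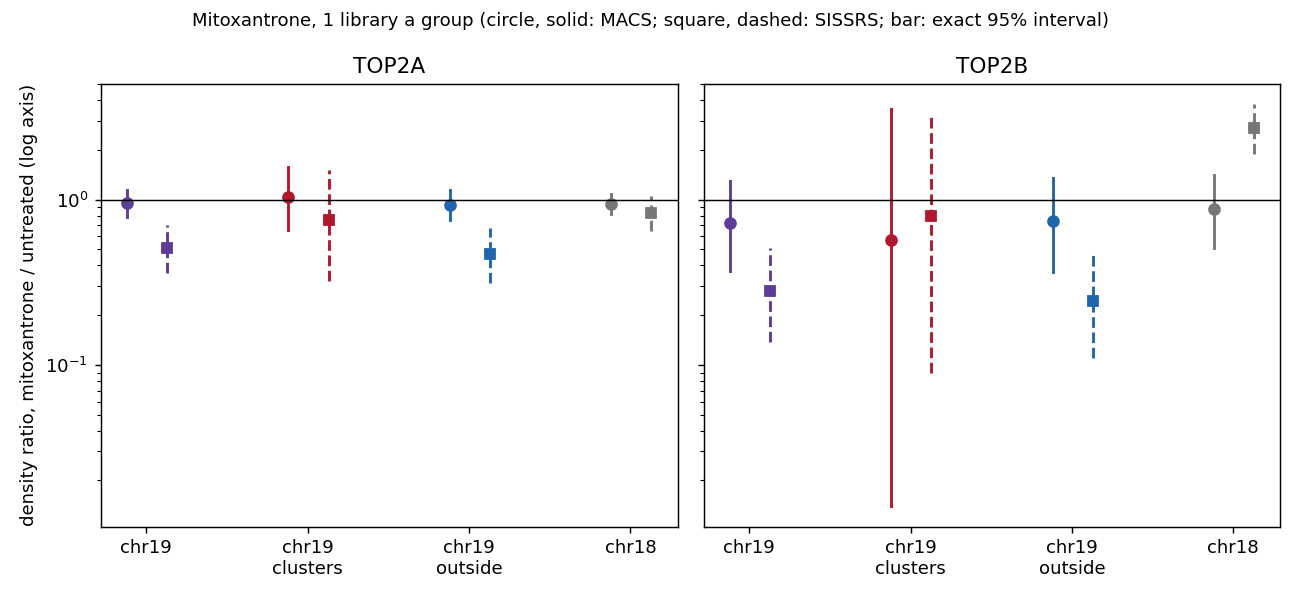
Ratio of density with mitoxantrone to density without drug (y axis, log scale) for chr19, its 2 parts and chr18; circles with solid bars are MACS peaks, squares with dashed bars SISSRS sites, and bars are exact 95% intervals. MACS intervals include 1 throughout, and SISSRS squares for chr19 and its remainder lie below 1 for both enzymes.

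Regions called again and again were rare. Merging overlapping MACS peaks of the 12 libraries gave 27532 chr19 regions, of which 2359 (8.57%) were covered in 2 or more libraries, against 7.83% on chr18 and 8.29% over all chromosomes. The share was 8.43% in the clusters and 8.59% outside. In 4 or more libraries there were 31 (0.113%), against 0.0694% on chr18 and 0.137% over all chromosomes. Of these 31, 3 were in the clusters (0.0755% of cluster regions, against 0.119% outside). On chr19 0 regions were in 7 or more libraries, where all chromosomes together had 35 of 1277462. The 2 seen in 6 libraries lay outside the clusters, at chr19:50636138-50640717, found in all 4 vehicle libraries, 1 etoposide library and the TOP2A mitoxantrone library, and at chr19:37759995-37764911, found in 1 vehicle library, all 4 etoposide libraries and the TOP2B untreated library. They spanned 4580 and 4917 bp, chiefly because 1 broad peak of the mitoxantrone experiment (4318 and 4917 bp) covered several narrow ones. The other 2 regions outside the clusters, in 5 libraries each, were chr19:24628395-24628980, beside cluster 1, and chr19:36769072-36771192, whose median score percentiles were 4.81 and 1.56.

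In the clusters the regions in most libraries were chr19:53087838-53088799 and chr19:57453801-57454523, with 5 libraries each, chr19:21669511-21670243 with 4 and chr19:53099610-53099924 with 3. The first was found in the second library of all 4 groups of the etoposide experiment and in TOP2A without drug, at score percentiles of 24.3 to 87.5. The second had low percentiles, 3.43 to 18.8. The fourth, in cluster 2 like the first, had the score 3100 in the first TOP2A vehicle and the second TOP2A etoposide library (percentiles 94.5 and 97.5). No gene was assigned to these regions, since no annotation of the hg19 build was used here. The highest-scoring cluster peak of each etoposide-experiment group stood at chr19:21703206-21703323 (TOP2A vehicle), chr19:57853572-57853720 (TOP2A etoposide), chr19:20343425-20343540 (TOP2B vehicle) and chr19:20951881-20951984 (TOP2B etoposide), 4 separate places with percentiles of 99.2 to 99.97. Outside the clusters the highest-scoring peaks were at chr19:1234036-1234146, chr19:24520831-24520989, chr19:4201423-4201568 and chr19:39521015-39521116 in the same order, again all different.

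Gene content was set beside density at the level of whole chromosomes. In RefSeq of GRCh38.p14, used for counts of names only, chr19 had 1451 protein-coding genes, or 24.5 per Mb of its hg19 span, the highest of 23 chromosomes, and chr18 had 270, or 3.46 per Mb. Of 517 protein-coding genes named ZNF with a number, 250 were on chr19 and 9 on chr18. Across the 22 autosomes the Pearson correlation of gene density with the mean peak density of the 8 libraries was 0.038. It was 0.472 without chromosome 8, the densest of all, and 0.237 when chr19 was left out too. Chromosomes of these libraries share depth and the copy number of 1 cell line, and no test was made. Gaps in the sequence count as length in both densities.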

How the data were processed

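Each of the 12 antibody libraries has 2 deposited peak lists on hg19, 1 of MACS peaks and 1 of SISSRS sites. Reads were aligned with Bowtie2 2.2.5 and MACS 1.4 and bedtools 2.26.0 were used, per the submitters' processing notes. The sources used here name neither the settings of the callers nor their input. The deposited MACS score of each peak is the authors', and changes in score were tested on its percentile within its list. The raw score was used in the alternatives with a minimum score and with each list cut to its highest-scoring peaks. Raw scores were also given as medians of lists and for peaks of a cluster region. The deposited SISSRS lists give the authors' tag count, fold ratio over background and p-value for each site, and the p-value was not used in any result. Peaks off chromosomes 1 to 22 and X were left out. Chromosome lengths are the largest peak end in any list.

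Density was peaks per Mb over that of the whole list, tested as log2 with 0.5 peaks added, over 23 chromosomes, 24 segments or 1 Mb bins averaging 5 or more peaks over the 8 libraries. limma 3.58.1 in R 4.3.3 fitted the 4 groups of the etoposide experiment together, with Benjamini-Hochberg adjustment over all features. The fitting code was run on simulated data. The planted log2 changes were larger than any chr19 density estimate from all 8 libraries. That run does not measure power for changes of the size reported here. Ratios between parts of a library were tested by exact sign-flip permutation, and single libraries have exact Clopper-Pearson 95% intervals. Overlap meant at least 1 shared base. Depth in reads is unknown, so the number of peaks limits the precision. Described chr19 bins are the 3 densest, the 3 sparsest and the 3 with the largest estimates in each direction for each antibody; described regions are the 4 in most libraries inside and outside the clusters, and the highest-scoring peaks of each group. The members, windows and lists were chosen with earlier results of these data known.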

Additional observations from a re-analysis of the deposited data

How the results depend on the processing

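No etoposide change or enzyme difference of chr19, its clusters or its remainder passed the threshold under the alternatives tried, except for chr19 and the remainder with the second TOP2B etoposide library left out. Of the chr19 bins, 2 were called for TOP2A with the second TOP2A etoposide library left out. Most changes of sign below concern estimates near 0. Values are log2 unless stated. With each list cut to its highest-scoring peaks, the TOP2A etoposide changes were 0.15 for chr19, 0.040 for the clusters and 0.17 for the remainder, the TOP2B changes were 0.027 for chr19 and 0.038 for the remainder, chr19 over chr18 was -0.20 and clusters over remainder 0.28. The cut was to the length of the first TOP2A etoposide list, which therefore stayed whole. With SISSRS sites the cluster change with TOP2B was 0.049, the TOP2A minus TOP2B changes were -0.065 for chr19 and -0.10 for the clusters, TOP2A minus TOP2B in vehicle clusters was 0.0031, and the mitoxantrone changes of chr19 were -0.98 for TOP2A and -1.84 for TOP2B. At a score of at least 100, chr19 over chr18 was 0.14 and clusters over remainder 0.029. With wide peaks alone, clusters over remainder was -0.17 and the TOP2A cluster score percentile changed by -13.4 points. Those percentiles were still ranked within the whole list, so any shift of all wide peaks is part of that value. Narrowed windows gave 0.0525 and 0.087 for TOP2A minus TOP2B in the clusters with vehicle and etoposide. Widened windows gave 0.10 for the latter, 0.063 for the TOP2A cluster change and 0.021 for clusters over remainder, and the median chromosome as reference gave 0.017 for the TOP2A cluster change. The cause was not tested for any of these. In 2 alternatives chosen after seeing the data, chr19 over chr18 was 0.24 in the 4 vehicle libraries and 0.12 in the 4 etoposide libraries, where 4 libraries allow no exact p below 0.125, and clusters over remainder was 0.033 in the latter.

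With each library left out in turn, the TOP2B etoposide change ranged from -0.29 to 0.0061 for chr19, -0.33 to 0.013 for the remainder and -0.065 to -0.0047 for the clusters. The TOP2A change ranged from -0.026 to 0.0043 in the clusters. The TOP2A minus TOP2B difference ranged from -0.025 to 0.27 for chr19 with etoposide, -0.019 to 0.011 for the clusters with etoposide and -0.057 to 0.0025 for the clusters with vehicle. The difference of the 2 changes ranged from -0.077 to 0.22 for chr19 and -0.0064 to 0.054 for the clusters. Cluster width changed by -0.0061 to 0.0033 for TOP2A and -0.00088 to 0.017 for TOP2B, and the cluster score percentile by -0.43 to 4.04 points for TOP2B. Chr19 over chr18 ranged from 0.15 to 0.22 and clusters over remainder from -0.058 to 0.0034. The number of bins called ranged from 0 to 119 for TOP2A, the highest without the second TOP2A etoposide library, when 2 were on chr19, and from 0 to 8 for TOP2B, the highest without the second TOP2B etoposide library, when 0 were. A fit without 1 of 2 libraries assumes that the lone library varies like the other groups. The bin chr19:20000001-21000000 ranged from -0.066 to 0.67 for TOP2B.

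The labels number the replicates 1 and 2 in each group but do not say what a number shares. Deviations of same-numbered libraries over 23 chromosomes correlated at 0.377 between TOP2A vehicle and etoposide and at -0.377 between TOP2B vehicle and etoposide. Between TOP2A vehicle and TOP2B vehicle the correlation was 0.551, and between TOP2A etoposide and TOP2B vehicle 0.309. TOP2B etoposide was at -0.722 with TOP2A vehicle and at -0.223 with TOP2A etoposide. What these correlations reflect was not tested. With the replicate block the chr19 changes were -0.07 for TOP2A (limma, adjusted p = 0.981) and -0.14 for TOP2B (adjusted p = 0.932), and no call changed. With the TOP2B etoposide numbers crossed, an alternative chosen after seeing the data, 0 features were called in any comparison. The alternative of median in place of mean width could not be fitted, because every median equals the minimum width. The number of peaks limits these results most in the first TOP2A etoposide library, with 112 cluster peaks, and in the TOP2B mitoxantrone library, with 12 chr19 peaks.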
